A study of Mus musculus with 2 samples.

Results

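The genes described here encode 10 proteins of the matrix that surrounds neural cells: the lecticans Vcan, Ncan, Bcan and Acan, the link protein Hapln1, the tenascins Tnc and Tnr, the receptor phosphatase Ptprz1, and the glypicans Gpc2 and Gpc3. They were chosen by name and not by a limit on their values, and were found by symbol among 55536 genes of the GENCODE M21 annotation, where all 10 were measured. PolyA-plus RNA was sequenced from the hindbrain of B6NCrl mouse embryos of both sexes at embryonic day 12.5. The series holds 1 group with 2 biological replicates: pool 1 combined the hindbrains of 120 embryos and pool 2 those of 88. No treatment, mutation or second tissue was included, so the values describe levels, transcript forms and the spread between the pools, and no test between groups was possible. Each pool averages over many embryos, so differences between single embryos cannot be seen.

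Lecticans are secreted chondroitin sulfate proteoglycans that bind the polysaccharide hyaluronan at one end and glycoproteins such as tenascins at the other, and link proteins hold the hyaluronan bond in place. In the brain this network loosens or blocks the path of migrating cells and growing axons, and after birth it condenses into perineuronal nets. Glypicans are heparan sulfate proteoglycans tied to the cell surface by a lipid anchor, where they bind growth factors and morphogens. Ptprz1 carries chondroitin sulfate on its outer part and binds contactins, pleiotrophin and midkine.

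Genes held 31469575 expected counts in pool 1 and 29261472 in pool 2, and spike-in RNAs took 3.31% and 4.25% of all counts. The hindbrain label was checked against a list of 5 hindbrain identity genes. Hoxa2, Hoxb2, Gbx2 and Hoxb4 were at 5.99 TPM (a length-corrected share of the library) or more in both pools. En2, the other gene of that list, was under 1 TPM in both, at 0.51 TPM in pool 1 against 0.66 TPM in pool 2. Tissue outside the neural tube was represented too. The mesenchymal collagen Col1a1 had 393 TPM in pool 1, against 526 TPM in pool 2, and the cartilage collagen Col2a1 at 355 and 374 TPM. Pool 1 held less RNA of skeletal muscle: the summed level of 8 muscle genes was 42.4 TPM in pool 1 against 207.8 TPM in pool 2.

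The 4 lecticans share the exons that encode their ends and differ in the middle. In the longest Vcan, Ncan, Bcan and Acan models of GENCODE M21, the run of exons 4 to 6 has the lengths 175, 128 and 294 bases in each gene, and a later run has 159, 83 and 145 bases. The 83-base exon lies in the C-type lectin region that binds tenascins and fibulins, and it is shown because it is short enough to compare by eye. Read from the GENCODE M21 transcripts, 5′ to 3′, with capitals at the 40 positions where all 4 genes have the same base, it was:
Vcan exon 12, chr13:89678075-89678157, minus strand: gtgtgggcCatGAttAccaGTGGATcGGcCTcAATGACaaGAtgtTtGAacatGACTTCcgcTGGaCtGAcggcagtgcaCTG
Ncan exon 12, chr8:70100233-70100315, minus strand: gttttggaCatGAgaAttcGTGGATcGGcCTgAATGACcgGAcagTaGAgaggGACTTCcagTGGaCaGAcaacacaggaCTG
Bcan exon 11, chr3:87989168-87989250, minus strand: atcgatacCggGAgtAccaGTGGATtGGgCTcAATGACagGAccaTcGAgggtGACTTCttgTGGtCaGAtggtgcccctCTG
Acan exon 14, chr7:79111955-79112037, plus strand: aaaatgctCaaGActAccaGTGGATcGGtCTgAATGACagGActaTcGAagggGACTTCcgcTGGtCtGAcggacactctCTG
The capitals mark 48.2% of the exon. Pairs of genes had 59.0% to 69.9% of these 83 bases in common, and over the 6 shared exons the lowest pairwise identity was 52.3%, in the 128-base exon, and the highest 77.2%, in the 145-base exon. Between the shared runs lie the exons that carry most of the chondroitin sulfate, and these had no common length. Vcan has exons of 2880 and 5217 bases there, Acan an exon of 3483 bases, Ncan exons of 597 and 1209 bases and Bcan exons of 222 and 588 bases.

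The second set of sequences shows how Vcan, the gene of versican, is spliced. Its 2880-base exon, called alpha, lies at chr13:89702918-89705797 and its 5217-base exon, called beta, at chr13:89688285-89693501, both on the minus strand. Form V0 holds both exons, V1 holds beta, V2 holds alpha and V3 holds neither. Each line gives the last 20 bases of an exon in lower case and the first 20 of the next in capitals, 5′ to 3′, from the GENCODE M21 transcripts:
exon 6 to alpha, in V0 and V2: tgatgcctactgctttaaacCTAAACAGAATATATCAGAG
alpha to beta, in V0: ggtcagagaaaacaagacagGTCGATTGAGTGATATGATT
exon 6 to beta, in V1: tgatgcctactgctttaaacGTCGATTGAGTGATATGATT
alpha to the 114-base exon after beta, in V2: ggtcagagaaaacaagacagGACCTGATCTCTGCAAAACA
beta to the 114-base exon, in V0 and V1: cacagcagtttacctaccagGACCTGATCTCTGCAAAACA
exon 6 to the 114-base exon, in V3: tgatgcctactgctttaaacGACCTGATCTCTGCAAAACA
The join of alpha to beta, the join of exon 6 to beta, the join of alpha to the 114-base exon and the join of exon 6 to the 114-base exon were each found in 1 Vcan transcript model only, so these 4 joins tell the forms apart.

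**Figure D1:**
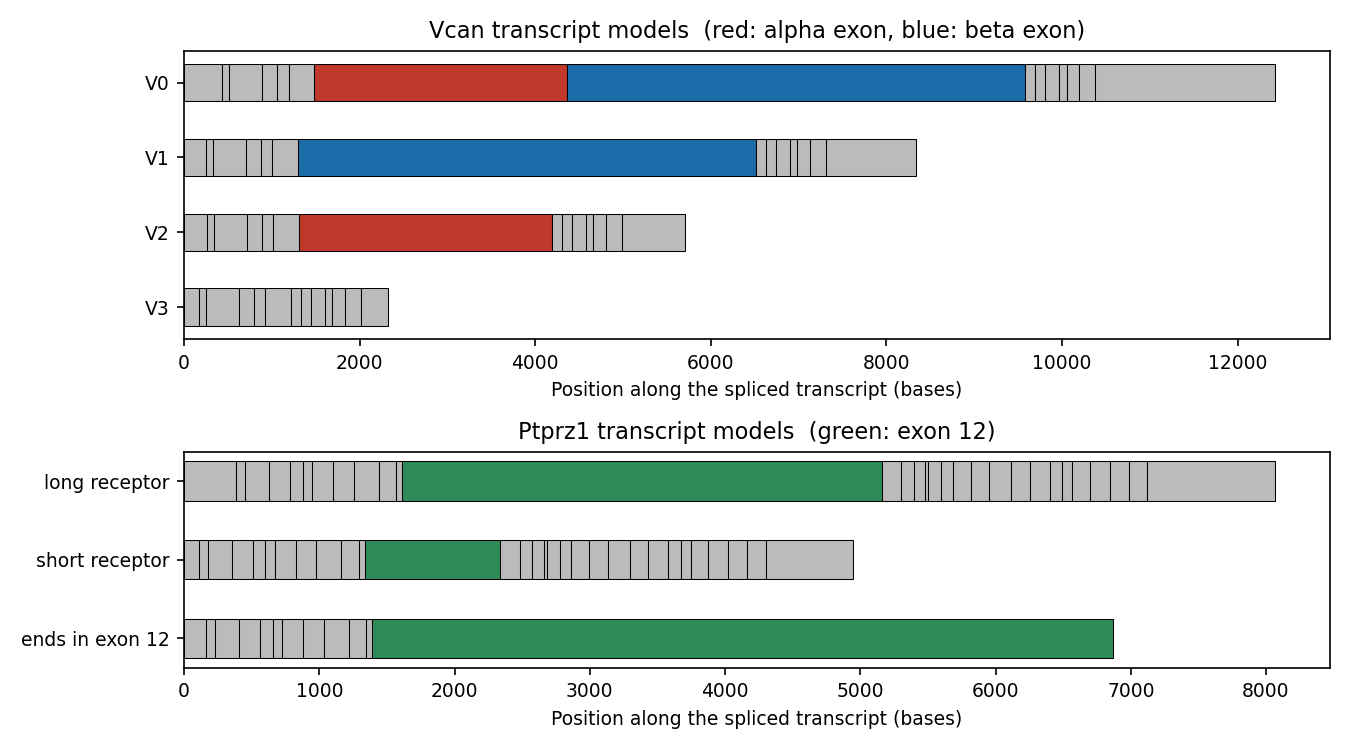
Exon maps of 4 Vcan and 3 Ptprz1 transcript models of GENCODE M21, drawn to scale as boxes along the spliced transcript in bases from its 5′ end. The alpha exon (red, 2880 bases) and the beta exon (blue, 5217 bases) set the Vcan forms apart, and exon 12 (green) is 3547, 1000 or 5479 bases long in the 3 Ptprz1 models.

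All 10 genes reached 1 TPM in both pools, a level that 29.0% of all 55536 genes reached. Their mean levels over the 2 pools ran from 1.05 TPM for Tnr to 280 TPM for Gpc3, with a median of 23.6 TPM, against a median of 16.9 TPM for the 16100 genes at 1 TPM or more in both pools. In order of mean level they were Gpc3, Gpc2, Ncan, Vcan, Ptprz1, Tnc, Hapln1, Acan, Bcan and Tnr. Of the 9 pairs of neighbours in that order, Ncan and Vcan, Ptprz1 and Tnc, and Hapln1 and Acan had pool values that overlapped, and the pool values of the other 6 pairs lay apart. Tnc and Hapln1 did so narrowly, with 14.9 TPM for Tnc in pool 1 against 14.2 TPM for Hapln1 in pool 2. With the GENCODE M4 annotation these values were 15.7 and 17.2 TPM, an overlap, and the mean of Ptprz1 (17.2 TPM) was below that of Tnc (21.5 TPM). TPM is corrected for transcript length, so levels can be compared between genes. That correction rests on the transcripts to which reads were assigned. For Bcan and Tnr, with 38 counts each in pool 2, the authors' deposited TPM bounds overlapped in both pools, so their order is not settled. Gene identifiers and positions below are those of GENCODE M21 on mm10.

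**Figure D2:**
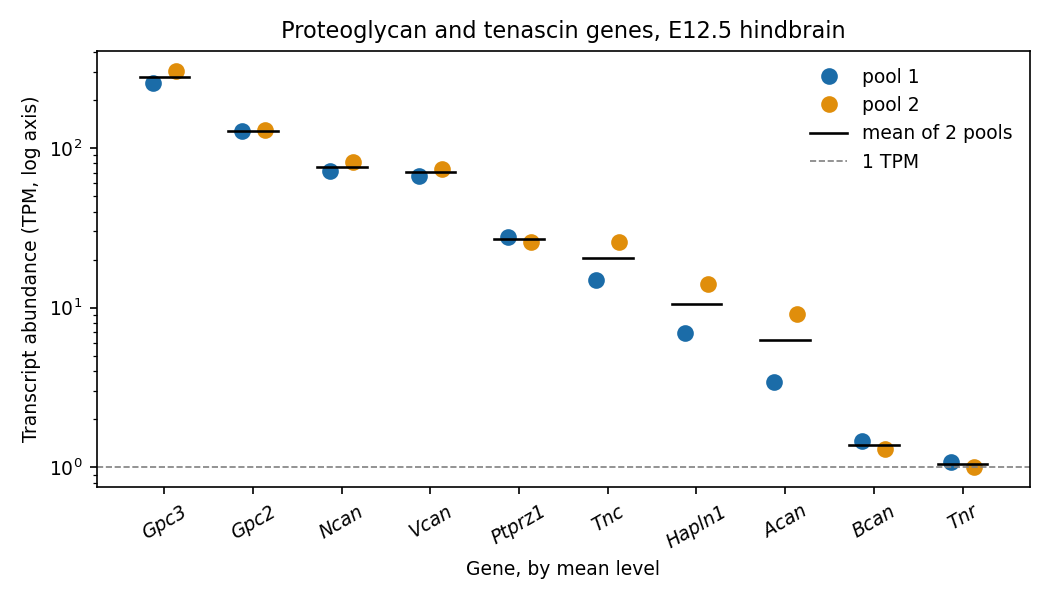
Level of each of the 10 genes in TPM (log axis) in pool 1 and pool 2, with a bar at the mean of the pools and a dashed line at 1 TPM. Gpc3 (255 and 305 TPM) stands highest, Bcan and Tnr lie just above the line, and the points of Tnc, Hapln1 and Acan are farther apart than those of the other genes.

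Versican and neurocan made up nearly all lectican RNA. Ncan (ENSMUSG00000002341.8, chr8:70093085-70120873, minus strand), a lectican made mainly in the nervous system, was at 71.3 TPM in pool 1 and at 81.9 TPM in pool 2 (76.6 ± 7.50 TPM, SD, n = 2 pools), from 10101 and 10696 counts. Vcan (ENSMUSG00000021614.16, chr13:89655312-89742509, minus strand), the lectican found in many embryonic tissues, was at 67.1 TPM in pool 1 and at 73.6 TPM in pool 2 (70.3 ± 4.57 TPM, SD, n = 2), from 9745 and 9945 counts. Both genes were slightly lower in pool 1, and the ranges of Ncan and Vcan overlapped. The summed level of the 4 lecticans was 143 TPM in pool 1 against 166 TPM in pool 2. Ncan held 49.7% of that sum in pool 1 and 49.4% in pool 2, and Vcan held 46.9% and 44.4%.

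Aggrecan and brevican, which are known from cartilage and from the more mature brain, were far lower. Acan (ENSMUSG00000030607.7, chr7:79053483-79115099, plus strand) was at 3.41 TPM in pool 1 and at 9.09 TPM in pool 2 (6.25 ± 4.02 TPM, SD, n = 2), from 334 and 827 counts. The Acan level in pool 1 was well under that in pool 2, so its share of lectican RNA was 2.38% in pool 1 and 5.48% in pool 2. Bcan (ENSMUSG00000004892.13, chr3:87987531-88000230, minus strand) was at 1.46 TPM in pool 1 and at 1.30 TPM in pool 2 (1.38 ± 0.113 TPM, SD, n = 2), from 73 and 38 counts. Ncan was 48.8-fold above Bcan in pool 1 and 63.0-fold in pool 2.

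Hapln1 (ENSMUSG00000021613.9, chr13:89539796-89611652, plus strand), the link protein that clamps lecticans to hyaluronan, was at 6.90 TPM in pool 1 and at 14.2 TPM in pool 2 (10.5 ± 5.13 TPM, SD, n = 2), from 746 and 1463 counts. Like Acan, it was lower in pool 1 by more than most genes. Hapln1 is the neighbour of Vcan on chromosome 13: the genes run in opposite directions, 43659 bases apart, with no annotated gene between them. The other 3 lecticans also have a link protein gene beside them with no annotated gene between. Hapln2, beside Bcan, was at 0.23 TPM in pool 1 against 0.25 TPM in pool 2, and Hapln4, beside Ncan, at 0.63 and 0.26 TPM. Hapln3, which ends 2 bases from Acan, was at 0.71 TPM in pool 1 against 1.46 TPM in pool 2. Hapln1 was thus the highest of the 4 link protein genes in both pools, and the 3 others rested on 5 to 55 counts a pool.

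Of the tenascins, Tnc was the abundant gene. Tenascin-C is a many-armed glycoprotein found around migrating cells and in embryonic mesenchyme, and tenascin-R is the tenascin of the more mature nervous system. Tnc (ENSMUSG00000028364.15, chr4:63959785-64047015, minus strand) was at 14.9 TPM in pool 1 and at 25.9 TPM in pool 2 (20.4 ± 7.77 TPM, SD, n = 2), from 2069 and 3259 counts. Tnr (ENSMUSG00000015829.13, chr1:159523769-159931729, plus strand) was at 1.08 TPM in pool 1 and at 1.01 TPM in pool 2 (1.05 ± 0.0495 TPM, SD, n = 2), from 51 and 38 counts. Tnc was lower in pool 1 and Tnr lay close to the 1 TPM line in both, so Tnc exceeded Tnr 13.8-fold in pool 1 and 25.7-fold in pool 2.

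Ptprz1 (ENSMUSG00000068748.7, chr6:22875502-23052916, plus strand) encodes the receptor tyrosine phosphatase zeta of radial glia and oligodendrocyte precursors, and its secreted outer part is known as phosphacan. It was at 27.7 TPM in pool 1 and at 25.9 TPM in pool 2 (26.8 ± 1.30 TPM, SD, n = 2), from 3215 and 2766 counts. The pools lay close together. Its level depended on the annotation: it was 1.56-fold higher with GENCODE M21 (26.8 TPM, 6 transcripts) than with GENCODE M4 (17.2 TPM, 1 transcript). Acan was also higher with M21, 1.43-fold, and Hapln1 was at 0.83-fold of its M4 level.

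The glypicans were the highest of the 10 genes. Gpc3 (ENSMUSG00000055653.13, chrX:52272426-52613950, minus strand), a glypican of growing embryonic tissues that binds Hedgehog proteins, was at 255 TPM in pool 1 and at 305 TPM in pool 2 (280 ± 35.3 TPM, SD, n = 2), from 10752 and 11854 counts. It ranked 574 in pool 1 and 435 in pool 2 among all genes. Gpc2 (ENSMUSG00000029510.15, chr5:138273655-138280005, minus strand), a glypican of developing neurons known to bind midkine, was at 127 TPM in pool 1 and at 129 TPM in pool 2 (128 ± 1.39 TPM, SD, n = 2), from 6566 and 6402 counts. In TPM, Gpc2 differed least between the pools among the 10 genes, and Gpc3 exceeded it 2.01-fold in pool 1 and 2.37-fold in pool 2. A630012P03Rik, which overlaps Gpc3 on the other strand, had 39 counts in pool 1 and 61 in pool 2, and no gene that overlaps any of the 10 had more than 61 counts in a pool. Whether the counting used strand was not stated, so reads from antisense overlaps cannot be told apart.

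The pools were then set against each other gene by gene, as pool 1 over pool 2, on counts scaled by TMM, a method that matches the bulk of the genes. Intervals are 95% exact binomial intervals of the counts and cover counting error only. Of the 9 genes with a mean of at least 50 counts, Acan and Hapln1 lay 2-fold or more apart, both lower in pool 1. Among all 14995 genes with that many counts, 1.00% were 2-fold apart: 0.413% were higher in pool 1 and 0.587% lower in pool 1. Acan had a log2 ratio of −1.42 (interval −1.60 to −1.23), so that pool 2 held 2.67-fold more, and 0.420% of all genes were at least as far apart. Hapln1 had a log2 ratio of −1.08 (interval −1.21 to −0.95), 2.11-fold more in pool 2, and 0.827% of genes were as far apart. When the pools were scaled by spike-in totals, which moved the median log2 ratio of all genes to 0.37, Acan stayed 2-fold apart at −1.04 and Hapln1 did not, at −0.70. With 2 replicates of 1 group there is no test of such a difference.

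At a 1.5-fold limit, which 3.43% of all genes passed, 4 of the 9 were apart. Tnc joined Acan and Hapln1 on the side lower in pool 1, with a log2 ratio of −0.76 (interval −0.84 to −0.68), but under spike-in totals its log2 ratio was −0.39 and it did not pass this limit. Bcan, the smallest of the 9 in counts, was the only one of these 4 that was higher in pool 1, with a log2 ratio of 0.82 (interval 0.25 to 1.44). In TPM the Bcan pools were only 1.12-fold apart, because its effective length was 2508 bases in pool 1 and 1590 bases in pool 2, as set by the transcripts its reads were assigned to. The other genes were closer: −0.25 for Gpc3, −0.19 for Ncan, −0.14 for Vcan, −0.07 for Gpc2 and 0.11 for Ptprz1 on the log2 scale. Tnr, under 50 counts on average, had a log2 ratio of 0.31 with an interval of −0.32 to 0.96 that spans 0. The median log2 ratio was −0.19 for the 9 genes and −0.00 for all genes, and 7 of the 9 were lower in pool 1, as were 51.4% of all genes. Under spike-in totals, 3 of the 9 (Acan, Hapln1 and Tnc) and 4.45% of all genes were lower in pool 1.

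Marker genes of cartilage, mesenchyme and skeletal muscle were lower in pool 1 beside Acan, Hapln1 and Tnc, which are also made by cartilage and connective tissue, while those of blood and surface epithelium were mostly higher in pool 1. Of 11 cartilage genes, 10 were lower in pool 1 on TMM-scaled counts (6 of 11 under spike-in totals), with a median log2 ratio of −0.47 and a summed level of 757 TPM in pool 1 against 858 TPM in pool 2. The cartilage matrilin Matn1 was at 3.55 TPM in pool 1 against 14.8 TPM in pool 2, and its relative Matn3 at 1.24 and 4.53 TPM. The collagen Col2a1 differed little, with a log2 ratio of −0.07. Of the mesenchyme and meninges list, 8 of 8 genes were lower in pool 1 on TMM-scaled counts and 2 of 8 under spike-in totals, with a TMM median log2 ratio of −0.27 and sums of 1237 TPM in pool 1 against 1595 TPM in pool 2. The 7 skeletal muscle genes with at least 50 counts were all 2-fold or more lower in pool 1, with a median log2 ratio of −2.33, and Ckm, the other gene of that list, was under 1 TPM in both pools. In the other direction, 5 of 5 erythroid genes were higher in pool 1, with a median log2 ratio of 0.37 and sums of 13277 TPM in pool 1 and of 10379 TPM in pool 2, and 4 of 5 surface epithelium genes were higher, with a median of 0.62. The part of these tissues in the differences of Acan, Hapln1 and Tnc was not tested, and in bulk tissue fewer cells of a type and less RNA per cell cannot be told apart.

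Markers of progenitors and neurons lay closer together. The 8 radial glia and progenitor genes summed to 2579 TPM in pool 1 against 2361 TPM in pool 2, with a median log2 ratio of 0.10, and 7 neuronal genes to 2036 and 2116 TPM, with a median of −0.11. The 4 oligodendrocyte precursor genes, which mark cells known to make Bcan, Tnr and Ptprz1 later on, had a median log2 ratio of 0.50. Sox10 was at 15.1 TPM in pool 1 against 9.53 TPM in pool 2, Olig1 at 4.05 and 2.11 TPM, and Olig2 at 2.66 and 2.14 TPM. Pdgfra, also a gene of mesenchyme, was at 38.8 TPM in pool 1 against 46.1 TPM in pool 2. Of 4 astrocyte genes, Gfap, the gene of mature astrocytes, was at 0.04 TPM in pool 1 and at 0.09 TPM in pool 2. The other astrocyte genes reached 1 TPM in both pools: Aldh1l1 was at 15.04 and 9.96 TPM, Aqp4 at 1.85 TPM in both, and S100b at 1.27 and 1.06 TPM. The hindbrain regulators Hoxa2, Hoxb2, Gbx2 and Hoxb4 were lower in pool 1 on TMM-scaled counts, with a median log2 ratio of −0.36, and 2 of these 4 were lower under spike-in totals.

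**Figure D3:**
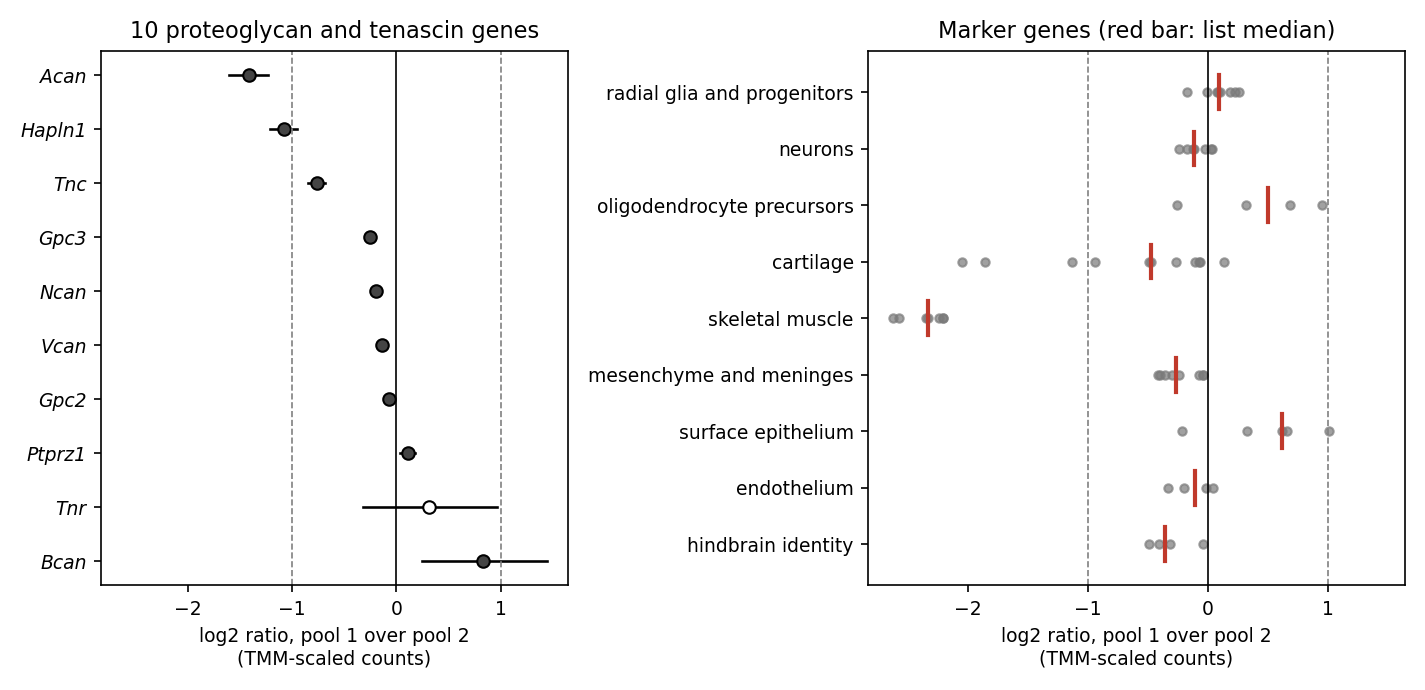
Log2 ratio of pool 1 over pool 2 on TMM-scaled counts for the 10 genes (left, with 95% counting intervals; the open circle is Tnr, under 50 counts on average) and for marker genes with at least 50 counts (right, 1 point a gene, red bar at the list's median). Dashed lines mark 2-fold: Acan and Hapln1 lie beyond the left line, as do the 7 skeletal muscle genes and the cartilage genes Matn1, Matn3 and Comp. The surface epithelium gene Epcam lies just beyond the right line. The erythroid, astrocyte, and cranial ganglia and crest lists are not drawn.

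The transcript tables showed which forms of each gene were present. V0, the longest versican, was the main Vcan form, with 46.3% of Vcan TPM in pool 1 and 45.1% in pool 2. V0 and V1 are the forms usually found in embryonic tissues and V2 is the form of the mature central nervous system. V1 held 7.23% in pool 1 and 7.11% in pool 2, and V2 held 3.31% and 8.18%. V2 was at 2.22 TPM in pool 1 against 6.02 TPM in pool 2, from 249 and 621 estimated counts. The authors' deposited bounds for V2, whose level is not given, were 1.07 to 3.78 TPM in pool 1 and 4.11 to 7.93 TPM in pool 2. These did not overlap, while those of V0, V1 and V3 overlapped between the pools. With GENCODE M4 the V2 bounds overlapped too, at 0.91 to 3.87 TPM in pool 1 and 3.13 to 8.13 TPM in pool 2. Bounds were deposited for each pool separately and hold no spread between replicates. Their overlap or lack of it, here and below, is therefore a description and not a test. The bounds also need not hold the TPM beside them: in pool 1, Ncan was at 71.3 TPM with bounds of 67.5 to 70.2 TPM.

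V3, the form without either glycosaminoglycan exon, held 22.4% of Vcan TPM in pool 1 and 21.3% in pool 2. By counts its share was 6.84% and 6.46%, and that of V0 was 78.6% and 75.7%, because V0 is 12427 bases long and V3 2321. All of V3 but its join from exon 6 to the 114-base exon, shown above, lies in exons that other Vcan models hold too, so its share rests on few reads that name it. The modelled last exon also differs, at 2047 bases in V0 and 303 bases in V3. The part of these model ends in the V3 share was not tested. The 5 other Vcan transcripts, which are partial or retain an intron, held 20.8% in pool 1 and 18.3% in pool 2.

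Ptprz1 RNA was assigned to receptor forms and to a form modelled as secreted. Exon 12, which encodes a large part of the chondroitin sulfate region, decides the form. In the long receptor it has 3547 bases (chr6:22999200-23002746, plus strand). In the short receptor it stops 2547 bases earlier. In another coding transcript, called the secreted form here, it runs on past the long exon's end, with 5 more coding bases that include a stop codon, so that this transcript lacks the membrane and phosphatase parts, as phosphacan does. Its exon 12 holds 1932 bases past that end, so reads of RNA left unspliced there cannot be told apart from it. The part of such RNA in its share was not tested. The 3 ends are shown 5′ to 3′, with capitals for the bases that follow the end of the short or long exon:
long receptor, exon 12 to exon 13: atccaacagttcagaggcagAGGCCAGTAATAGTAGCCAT
short receptor, exon 12 to exon 13: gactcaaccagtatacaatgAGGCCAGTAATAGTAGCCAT
secreted form, exon 12 read on to the stop codon: atccaacagttcagaggcagGTTAG
The long receptor held 33.3% of Ptprz1 TPM in pool 1 and 30.6% in pool 2, and the secreted form held 31.3% and 34.3%. The leading transcript by TPM was therefore the long receptor in pool 1 and the secreted form in pool 2. However, the deposited TPM bounds of these transcripts overlapped with each other within each pool, and those of each overlapped between the pools. By counts the long receptor led in both pools, with 45.6% in pool 1 and 41.9% in pool 2, against 36.5% and 40.0% for the secreted form. The short receptor held 15.6% in pool 1 and 16.0% in pool 2, and 3 transcripts with a retained intron held 19.8% and 19.1%. GENCODE M4 has only the long receptor for this gene, so these shares come from M21 alone.

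Tnc was mostly of the forms without an extra exon of 273 bases (chr4:63984460-63984732, minus strand). Such exons of 273 bases encode single fibronectin type III repeats, which are known to be spliced in and out of tenascin-C. The full-length models of both kinds hold the same other 273-base exons, so skipping of those repeats cannot be seen here. The joins that tell the forms apart are shown with capitals after each join:
with the extra exon, exon 13 to the extra exon: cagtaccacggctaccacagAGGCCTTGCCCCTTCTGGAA
with the extra exon, its end to exon 15: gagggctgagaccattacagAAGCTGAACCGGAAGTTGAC
without it, exon 13 to the exon after it: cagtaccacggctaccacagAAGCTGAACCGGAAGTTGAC
The 2 forms without it together held 73.8% of Tnc TPM in pool 1 and 78.4% in pool 2, and the form with it held 24.9% and 18.0%. The more abundant form without it was at 9.97 TPM in pool 1 against 17.9 TPM in pool 2, with deposited bounds that did not overlap. The form with it was at 3.72 TPM in pool 1 against 4.67 TPM in pool 2, with bounds that overlapped.

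Gpc2 carried a sizeable part of incompletely spliced RNA. The main coding transcript, of 10 exons, held 66.8% of Gpc2 TPM in pool 1 and 69.5% in pool 2. The 3 transcripts with a retained intron together held 24.3% in pool 1 and 24.9% in pool 2, of which a transcript of 4252 bases held 18.1% and 20.0%. That transcript keeps the intron between exons 1 and 2 of the coding form and the introns between its exons 4 and 7. For Gpc3, by contrast, the coding transcript of 8 exons held 97.6% in pool 1 and 97.8% in pool 2. A form of 5 exons that ends early held 2.40% and 2.23%.

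The coding Hapln1 transcript held 96.1% of Hapln1 TPM in pool 1 and 100% in pool 2, and Ncan has a single transcript model. The full Acan transcript, of 17 exons, held 50.7% in pool 1 and 51.4% in pool 2, and the rest was a model of 7 exons. By counts, the full transcript held 74.9% and 75.4%. GENCODE M4 has only the full Acan transcript, so this split comes from M21 alone. For Bcan, the full coding transcript held 67.8% in pool 1 and 27.7% in pool 2, from 60.2 and 20.0 estimated counts, and transcripts with a retained intron held the rest. By counts, the full coding transcript held 82.5% in pool 1 and 52.6% in pool 2. For Tnr, a retained-intron transcript held 68.8% of TPM in pool 1 and 69.3% in pool 2 from only 8.36 and 7.26 counts, because it is 660 bases long. The full coding Tnr transcripts had 42.7 and 30.2 counts, so by counts they held 83.6% in pool 1 and 79.2% in pool 2.

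**Figure D4:**
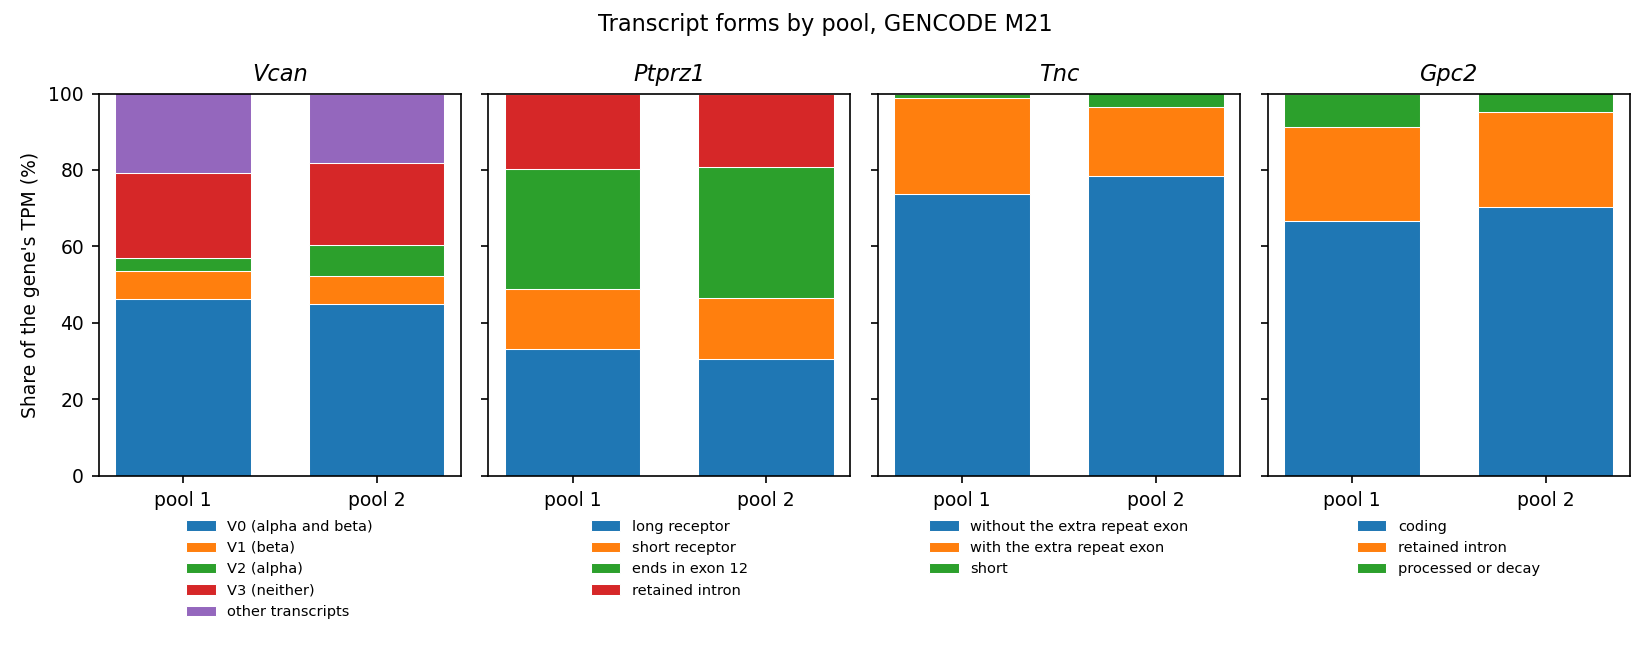
Share of each gene's TPM held by each kind of GENCODE M21 transcript, as stacked bars in percent for pool 1 and pool 2. V0 holds 46.3% and 45.1% of Vcan, while in Ptprz1 the long receptor and the secreted form that ends in exon 12 have nearly equal shares.

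The proteins that act on or with these matrix genes were mostly expressed. Of 125 genes in 8 related lists, 111 reached 1 TPM in both pools (88.8%), a level reached by 29.0% of all genes. Below, expressed means at that level in both pools. Of the 115 with a mean of at least 50 counts, 0 were 2-fold apart between the pools on TMM-scaled counts, beside 1.00% of all genes with that many counts, and 2 were under spike-in totals. All 28 genes of the list of receptors and ligands were expressed. The heparin-binding growth factors midkine and pleiotrophin, both ligands of Ptprz1, led it: Mdk was at 745 TPM in pool 1 against 693 TPM in pool 2, and Ptn at 387 and 419 TPM. Ptprs, a phosphatase that is a receptor for chondroitin and heparan sulfate chains, was at 245 TPM in pool 1 against 250 TPM in pool 2.

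Enzymes that build the sugar chains were present at moderate levels. Of 22 genes of chondroitin sulfate synthesis, 21 were expressed, with a median of 12.98 TPM. The highest were the linker enzymes B3gat3 (64.1 TPM in pool 1 against 61.1 TPM in pool 2) and B4galt7 (33.6 and 32.6 TPM) and the chain polymerising factor Chpf (32.1 and 30.1 TPM). Chst13, a sulfotransferase, was under 1 TPM in both pools. Of 17 genes of heparan sulfate synthesis and editing, 14 were expressed, with a median of 19.0 TPM. Here the extracellular sulfatases Sulf2 (144 TPM in pool 1 against 142 TPM in pool 2) and Sulf1 (145 and 104 TPM) were highest, followed by the chain polymerase Ext2 (65.6 and 66.6 TPM).

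In the list of other link proteins and hyaluronan genes, 7 of 13 were expressed, and its median of 1.63 TPM was the lowest of the 8 related lists. The hyaluronidase Hyal2 was at 81.0 TPM in pool 1 against 83.3 TPM in pool 2, Cemip2, a cell-surface protein of hyaluronan turnover, at 71.3 and 69.3 TPM, and the hyaluronan receptor Hmmr at 28.6 and 26.3 TPM. None of these 3 makes hyaluronan. Of the hyaluronan synthases, named here after their values were seen, Has2 was at 1.61 TPM in pool 1 against 1.65 TPM in pool 2, Has1 at 0.99 and 1.07 TPM, and Has3 at 0.17 and 0.21 TPM.

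Of 7 other tenascins and lectican partners, 5 were expressed, with a median of 56.0 TPM. The matrix glycoproteins Fn1 (113 TPM in pool 1 against 132 TPM in pool 2), Fbln1 (84.8 and 97.8 TPM) and Fbln2 (78.9 and 77.1 TPM) were highest. The tenascin genes Tnn (0.17 TPM in pool 1 against 0.18 TPM in pool 2) and Tnxb (0.04 and 0.03 TPM) were the members under 1 TPM in both pools, while Tnc and Tnr were above that level. The full coding transcripts of Tnr were at 0.34 TPM in pool 1 and at 0.23 TPM in pool 2. The deposited bounds of the gene spanned 1 TPM, at 0.78 to 2.03 TPM in pool 1 and 0.69 to 2.06 TPM in pool 2. Among 9 other glypicans and syndecans, 8 were expressed, with a median of 28.3 TPM. Gpc1 was highest at 61.8 TPM in pool 1 against 61.6 TPM in pool 2, below both Gpc2 and Gpc3, followed by the syndecans Sdc1 (54.3 and 62.2 TPM) and Sdc3 (46.9 and 51.2 TPM).

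Of 14 other chondroitin sulfate and small leucine-rich proteoglycans, 13 were expressed, with a median of 25.8 TPM. Agrn, the basement membrane proteoglycan agrin, was at 138 TPM in pool 1 against 124 TPM in pool 2. Lumican and decorin, proteoglycans of fibrous connective tissue, had their lower value in pool 1: Lum was at 93.5 TPM in pool 1 against 117 TPM in pool 2, and Dcn at 35.9 and 42.7 TPM. Prg4 was under 1 TPM in both pools. All 15 lectican-cleaving proteases and their inhibitors were expressed, with a median of 7.36 TPM, led by the membrane protease Mmp14 (87.3 TPM in pool 1 against 90.0 TPM in pool 2), Mmp2 (85.6 and 82.0 TPM) and the inhibitor Timp2 (51.3 and 52.4 TPM).

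**Figure D5:**
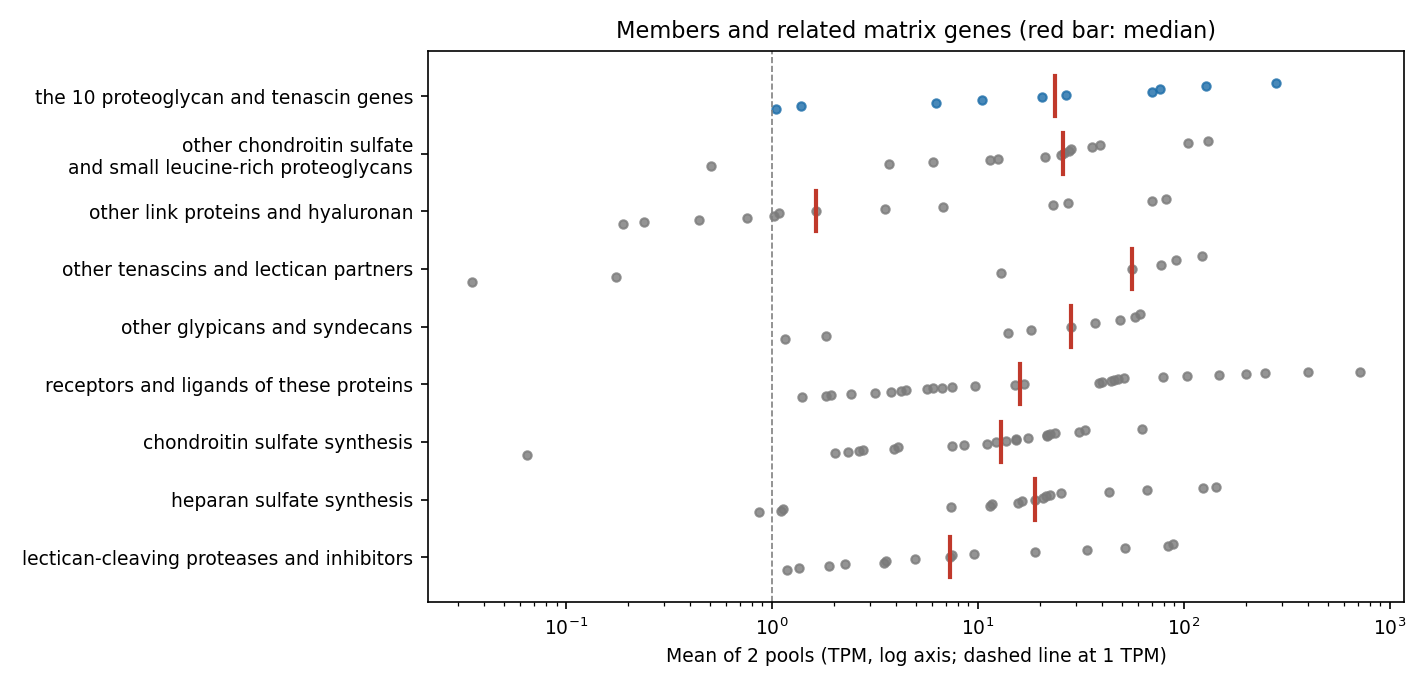
Mean level over the 2 pools in TPM (log axis) of the 10 proteoglycan and tenascin genes (blue) and of 8 lists of related matrix genes (grey), 1 point a gene, red bars at the medians and a dashed line at 1 TPM. The median of the 10 genes is 23.6 TPM, and the list of other link proteins and hyaluronan genes has the lowest of the 8 list medians, 1.63 TPM.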

How the data were processed

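RNA came from mirVana extraction, and 10 ng of it went into oligo-dT primed cDNA, Nextera tagmentation and libraries with ERCC spike-ins, per the labels' protocols. Oligo-dT priming can favour 3′ ends, and with it some transcript models over others. Without molecular identifiers, intervals cover counting error only. For each pool the authors deposited gene and transcript tables made with GENCODE M21 and M4 on mm10. The program, and whether it used strand, are not given in the sources used here. Expected counts, as the authors deposited them, are estimated reads and need not be whole. TPM values, as deposited, sum to a fixed total over genes, spike-ins and tRNA entries. The authors' isoform percent is a transcript's part of its gene's TPM, and shares here were computed from transcript TPM.

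M21 was the main annotation and gave the coordinates, exons and sequences. Symbols matched 55450 of 55536 gene identifiers. For TMM scaling in edgeR 4.0.16 (prior count 0.5), counts were rounded. DESeq2 1.42.0 size factors, total gene counts and spike-in totals were alternatives. A gene needed a mean of 50 counts to be counted as 2-fold apart. Over 18575 genes, edgeR gave a common biological coefficient of variation of 0.0858. The ratio step was tested on simulated data. Other software was R 4.3.3, scipy 1.17.1, numpy 2.4.6, pandas 2.3.3, matplotlib 3.10.9 and Python 3.11.15.

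The genes described and the related and marker lists were chosen with earlier results of these data known. From each related list the text names the 3 genes of highest mean TPM and, where there are 3 or fewer, those under 1 TPM in both pools; the link protein genes beside the lecticans, the hyaluronan synthases and marker genes are named beyond this rule.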

Additional observations from a re-analysis of the deposited data

How the results depend on the processing

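The summary values held under most alternatives. The median level of the 10 genes was 23.6 TPM with M21 and 19.3 TPM with M4, and 21.3 to 25.9 TPM with either pool left out. The median log2 ratio of pool 1 over pool 2 over all 10 genes was −0.16 under TMM and 0.21 under spike-in totals, but −0.16 again once the shift of all genes was taken off, an alternative chosen after seeing the data. At a 1.5-fold limit 4 genes were apart and at 2-fold 2, which were Acan and Hapln1 under DESeq2 size factors, total counts, either lower count limit and M4; under spike-in totals they were Acan and Bcan, which then had a log2 ratio of 1.20. At 1.5-fold, spike-in totals left 3 (Acan, Hapln1 and Bcan), without Tnc, an alternative added after seeing the data, as were the spike-in counts of the related and marker lists. The median share of the leading M21 transcript was 68.0% of TPM, 72.2% of counts, and 67.3% to 69.2% with either pool left out. With M4 it was 69.8%, without Ptprz1, whose leading M21 transcript M4 lacks. The number of genes at 1 TPM was 10 at 0.5 TPM too and 7 at 5 TPM, and 86 to 119 related genes were expressed over the alternatives, which for these lists were added after seeing the data. With 2 pools, leaving out either keeps the mean within the spread by construction and says nothing of stability. Depth limits Bcan and Tnr, which rest on 38 to 73 counts a pool. No paired analysis was possible because the series holds 1 group.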

Other observations

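The promoters of these genes differed in their content of CG dinucleotides. In the RefSeq promoter windows on GRCm38.p6, 300 bases from 250 before to 50 after each start, the 10 genes matched 11 windows (2 for Tnc). The ratio of observed to expected CG, counted on both strands at once because CG reads the same on each, was 0.92 for Gpc3, 0.89 for Bcan, 0.85 for Gpc2, 0.80 for Acan and 0.77 for Ptprz1. The Tnc windows had 0.597 and 0.732, Vcan 0.44, Ncan 0.38, Tnr 0.18 and Hapln1 0.14. A ratio of 0.6 or more was found in 54.5% of the 11 windows and in 35.8% of all 32851 windows in the table. Genes with high and with low levels were found on both sides of that value: Bcan (1.38 TPM) and Gpc3 (280 TPM) were above it, and Tnr (1.05 TPM) and Ncan (76.6 TPM) below.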
